A study of Mus musculus with 4 samples.

Results

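The miR-30 family was followed in small RNA libraries from embryonic mouse retina: the 10 arms mmu-miR-30a-5p, mmu-miR-30a-3p, mmu-miR-30b-5p, mmu-miR-30b-3p, mmu-miR-30c-5p, mmu-miR-30c-2-3p, mmu-miR-30d-5p, mmu-miR-30d-3p, mmu-miR-30e-5p and mmu-miR-30e-3p, written without the prefix below. These were chosen by name, as the listed arms of miR-30a to miR-30e, from 1326 listed mature microRNAs (miRNAs). All 10 were among the 584 miRNAs that had 10 or more counts in at least 2 libraries and were tested. The table also listed miR-30c-1-3p, the 3p arm of the other miR-30c hairpin, which is described beside them, and miR-30f, which had at most 2 counts per library and was not tested. The series holds 4 libraries of retina at E18.5, a late embryonic stage: Ptf1a+/- replicates 1 and 2, from mice with 1 lost copy of Ptf1a, and Ptf1a-/- replicates 1 and 2, from mice with both copies lost. The comparison group is thus heterozygous, and none of the 4 libraries is from wild-type retina. The labels do not give the allele, the strain, pooling or whether replicates came from separate animals, so p-values reflect no more than the spread among the libraries at hand, part or all of which could be technical. Ptf1a encodes a transcription factor that retinal progenitors need to form amacrine and horizontal cells.

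A miRNA hairpin is cut into a duplex of a 5p and a 3p strand. One strand, the guide, is usually kept in an Argonaute protein, where its seed (bases 2 to 8) pairs with messenger RNAs, while the partner, or passenger, is mostly degraded. In the miR-30 family the 5p arms are the usual guides and share their seed, whereas the 3p arms fall into different seed groups. The family is broadly expressed in vertebrate tissues, the nervous system included, and is known for targets in the epithelial to mesenchymal transition, autophagy and apoptosis.

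Mature sequences were matched in RefSeq (GRCm38.p6) for 6 of the 10 arms and for miR-30c-1-3p; miR-30b-5p, miR-30b-3p, miR-30d-5p and miR-30d-3p are given by name. The 5p arms are shown with the seed in capitals, because this is the part the guides have in common, together with miR-384-5p, the tested miRNA outside the family with the same seed.
miR-30a-5p: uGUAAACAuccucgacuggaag
miR-30c-5p: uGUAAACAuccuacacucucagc
miR-30e-5p: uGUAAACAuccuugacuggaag
miR-384-5p: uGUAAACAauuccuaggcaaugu
The 3p arms with a matched sequence are shown the same way, because the arm shares described below rest on them. Those shown form pairs by seed, and the seeds of miR-30b-3p and miR-30d-3p were not compared with them.
miR-30a-3p: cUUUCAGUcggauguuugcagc
miR-30e-3p: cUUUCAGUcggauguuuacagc
miR-30c-2-3p: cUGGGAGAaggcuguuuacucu
miR-30c-1-3p: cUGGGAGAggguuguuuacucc
Counting positions from 1 at the first (5′) base, miR-30e-5p differs from miR-30a-5p only by C13U and miR-30e-3p from miR-30a-3p only by G18A, so a read with an error at that base can match the other arm. The sources used here do not give how shared reads were counted. Of the 4 deposited counts of each arm, 2 were not whole numbers for miR-30a-5p, 3 for miR-30e-5p, 2 for miR-30a-3p and 0 for miR-30e-3p.

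The hairpins show how both arms sit in 1 precursor, with the mature arms in capitals.
Mir30a: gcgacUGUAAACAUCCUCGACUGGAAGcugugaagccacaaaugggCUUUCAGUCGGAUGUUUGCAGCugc
Mir30e: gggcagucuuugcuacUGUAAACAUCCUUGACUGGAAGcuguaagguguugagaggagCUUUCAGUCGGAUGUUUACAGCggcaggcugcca
Mir30a lies at chr1:23272269-23272339 (plus strand) in no other gene of GENCODE M21 (GRCm38), and Mir30c-2 at chr1:23291701-23291784 (plus strand), 19361 bases away, in an exon of the long noncoding RNA gene Gm27028. Mir30e (chr4:120772606-120772697, minus strand) and Mir30c-1 (chr4:120769534-120769622, minus strand) lie 2983 bases apart in an intron of Nfyc, which encodes a subunit of the transcription factor NF-Y. miR-30c-5p is made from both miR-30c hairpins, and its counts cannot be divided between the chromosome 1 and chromosome 4 loci, whereas miR-30c-2-3p and miR-30c-1-3p each belong to 1 of them. miR-30f is annotated on the strand opposite Mir30e.

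Listed counts summed to 3647145 to 4385834 per library, so 3 counts, the limit that a count of 0 allows, are 0.684 to 0.823 CPM before scaling (counts set to a common library total). Levels below are CPM scaled by TMM, which aligns libraries on most of their miRNAs. The libraries differed in 2 respects. The Ptf1a+/- pair was close (chi-square per degree of freedom 1.85 over 579 miRNAs, p = 5.13e-32) and the Ptf1a-/- pair was not (120.1 over 555 miRNAs). Over the 10 miR-30 arms alone the Ptf1a+/- pair differed by no more than sampling noise (1.39, chi-square p = 0.187), against 349 for the Ptf1a-/- pair. Both Ptf1a+/- libraries were kept as replicates, and the reported fits rest on this choice. The spread of the pair cannot show that they are independent samples, because technical variation can also exceed sampling noise. The total behind the deposited CPM held 17.05 and 16.3% of reads outside the listed miRNAs for Ptf1a+/- and 22.7 and 27.9% for Ptf1a-/-, and Ptf1a-/- replicate 2 had the lowest TMM factor (0.829, against 1.06 to 1.07). All 6 neural retina markers were measured, with a summed level of 362496 and 359307 CPM in Ptf1a+/- and 379228 and 534699 CPM in Ptf1a-/-. Of these 6, 0 were called higher and 0 lower, and the order of the sums does not hold for each member. miR-124-3p went the other way, with 1020.6 and 1033.7 CPM in Ptf1a+/- and 1019.7 and 832.6 CPM in Ptf1a-/-. Summed levels of the other marker lists that overlapped between genotypes were 227 to 305 CPM for 4 lens and surface epithelium miRNAs (miR-205-5p at 0) and 83.4 to 123 CPM for 5 blood miRNAs (miR-144-5p at 0). The 3 striated muscle miRNAs summed to 48.5 and 51.3 CPM in Ptf1a+/- and to 65.03 and 70.2 CPM in Ptf1a-/-, higher in both. The summed levels of the 3 pigment epithelium and the 4 vascular and mural miRNAs were lower in both Ptf1a-/- libraries and are given beside the 3p arms. Each of the pigment epithelium and lens lists held 1 miRNA called lower in Ptf1a-/-. Their part in the miR-30 results was not tested.

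The miR-30 5p arms were abundant in every library. Summed, they stood at 49459 and 48528 CPM in Ptf1a+/- replicates 1 and 2 and at 50279 and 60004 CPM in Ptf1a-/- replicates 1 and 2, or 48994 ± 658 and 55142 ± 6876 CPM (mean ± SD over 2 libraries). The Ptf1a-/- values were the 2 highest, by a log2 ratio of means of 0.17, but the order depended on the scaling. As a share of listed counts the 5p arms took 5.25 and 5.20% in Ptf1a+/- and 5.32 and 4.97% in Ptf1a-/-, which overlap, and on the deposited CPM they were lower in both Ptf1a-/- libraries (41165 and 35882 CPM) than in either Ptf1a+/- library (43550 and 43531 CPM; log2 ratio -0.18). The share not in the listed counts and the neural marker sum given above move with these totals, and their part in them was not tested. The 5 member 3p arms summed to 3889 and 3912 CPM in Ptf1a+/- and 2690 and 3303 CPM in Ptf1a-/-.

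**Figure D1:**
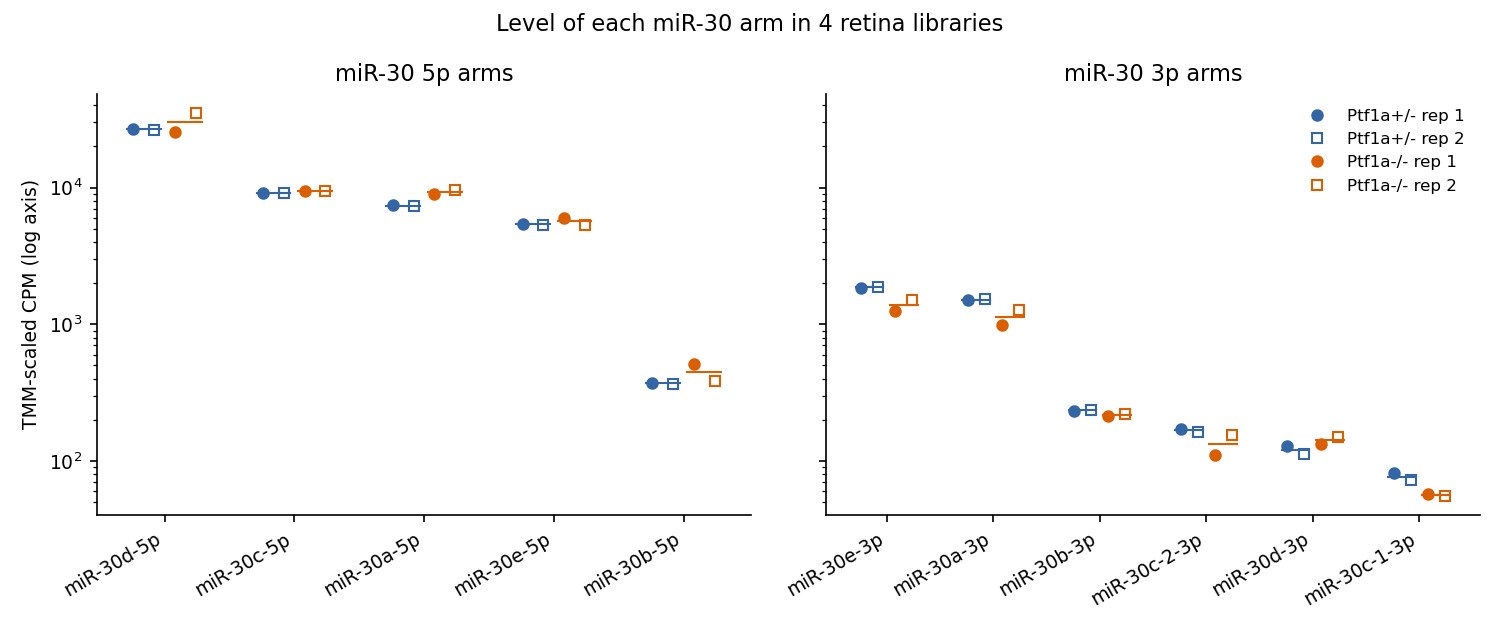
TMM-scaled CPM on a log axis of each 5p arm (left) and 3p arm (right) in the 4 libraries, ordered by the Ptf1a+/- mean. Points are libraries (circle, replicate 1; square, replicate 2; blue, Ptf1a+/-; orange, Ptf1a-/-) and bars are means of 2 libraries. miR-30d-5p was highest in every library, and miR-30a-3p and miR-30e-3p were lower in both Ptf1a-/- libraries.

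Among the guides, miR-30d-5p was the most abundant, 6th of the 584 tested miRNAs by mean level, with 26956 and 26466 CPM in Ptf1a+/- and 25362 and 35356.5 CPM in Ptf1a-/-. Its Ptf1a-/- libraries lay on either side of the Ptf1a+/- pair. miR-30c-5p followed with 9207 and 9067 CPM in Ptf1a+/- and 9436 and 9379.55 CPM in Ptf1a-/-, a narrow range over all 4 libraries. miR-30a-5p had 7479 and 7312 CPM in Ptf1a+/- and 8950.3 and 9573 CPM in Ptf1a-/-, so both Ptf1a-/- libraries were higher. miR-30e-5p stood at 5443 and 5316 CPM in Ptf1a+/- and at 6021 and 5313 CPM in Ptf1a-/-, which overlap. miR-30b-5p was by far the lowest 5p arm, with 374 and 367 CPM in Ptf1a+/- and 510.3 and 382 CPM in Ptf1a-/-. The order of the 5p arms was the same in both Ptf1a+/- libraries, with no overlap between neighbours. In Ptf1a-/-, miR-30c-5p and miR-30a-5p no longer kept a fixed order, the first being higher in replicate 1 and the second in replicate 2. Adapter ligation and PCR do not treat all small RNAs alike, which makes the order of arms less certain than the course of 1 arm over the libraries.

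The make-up of the guides was nearly identical in the Ptf1a+/- pair and differed between the Ptf1a-/- libraries. There the shares of miR-30d-5p, miR-30e-5p and miR-30b-5p moved in opposite ways. miR-30d-5p made up 54.5% of the summed 5p counts in both Ptf1a+/- libraries, 50.4% in Ptf1a-/- replicate 1 and 58.9% in replicate 2. The Ptf1a+/- value thus lay between the Ptf1a-/- libraries, and the difference of means was 0.163 percentage points. miR-30e-5p went the other way, with 11.00 and 10.95% in Ptf1a+/-, 11.97% in Ptf1a-/- replicate 1 and 8.85% in replicate 2. miR-30c-5p took 18.6, 18.7, 18.8 and 15.6% in the same order of libraries, the last of them standing apart. Only for miR-30a-5p did the share of both Ptf1a-/- libraries (17.8 and 15.95%) lie above both Ptf1a+/- libraries (15.1 and 15.07%). miR-30b-5p took 0.756% in both Ptf1a+/- libraries and 1.02 and 0.636% in Ptf1a-/-. Exact binomial intervals (95%, counting error only) on these shares reached at most 0.223 points to either side, less than the gaps between the Ptf1a-/- libraries for all arms. No test was run on the shares: 2 libraries against 2 allow an exact permutation p of no less than 0.333.

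**Figure D2:**
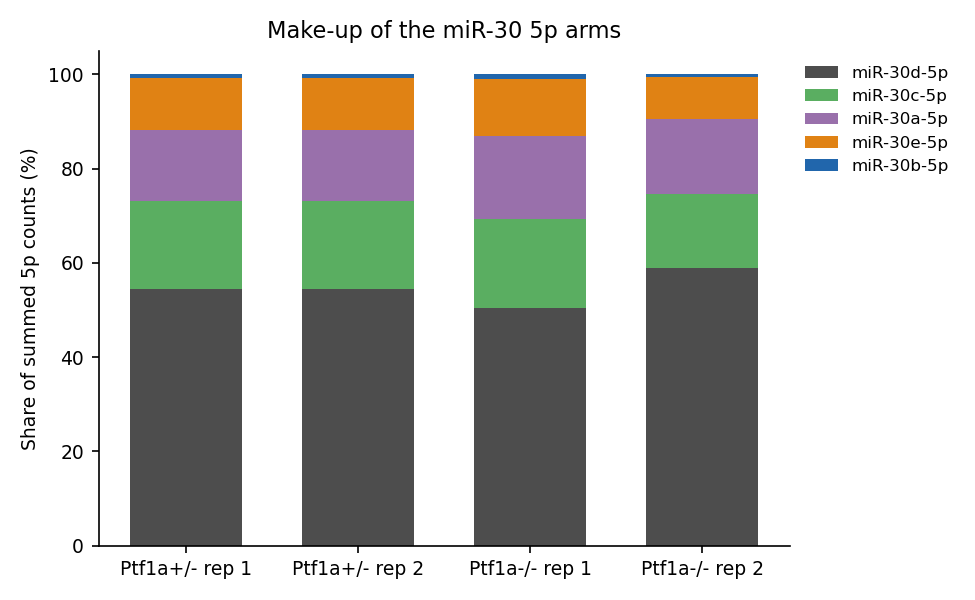
Share of each 5p arm in the summed 5p counts of the family (%, stacked to 100) in each of the 4 libraries. miR-30d-5p holds 54.5% in both Ptf1a+/- libraries, 50.4% in Ptf1a-/- replicate 1 and 58.9% in Ptf1a-/- replicate 2.

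Every 3p arm of the family had a lower level than its 5p partner in each library. miR-30e-3p was the most abundant of them, with 1844 and 1881 CPM in Ptf1a+/- and 1249.7 and 1513 CPM in Ptf1a-/-. miR-30a-3p had 1511 and 1521 CPM in Ptf1a+/- and 982 and 1265 CPM in Ptf1a-/-. For these 2 arms, which share a seed and come from different chromosomes, both Ptf1a-/- libraries lay below both Ptf1a+/- libraries, replicate 1 further than replicate 2. Marker sums of other cell types took the same order: the vascular and mural list stood at 593 and 614 CPM in Ptf1a+/- and 352 and 587 CPM in Ptf1a-/-, and the pigment epithelium list at 3689 and 3728 CPM against 3203 and 3565 CPM. Within the vascular and mural list, miR-126a-3p took this order (546 and 564 CPM in Ptf1a+/-, 324 and 545 CPM in Ptf1a-/-). miR-126a-5p did not, with 12.9 and 15.3 CPM in Ptf1a+/- and 14.5 and 21.2 CPM in Ptf1a-/-, which overlap. The part of these lists in the 3p levels was not tested. miR-30c-2-3p, the partner of the guide shared by both miR-30c hairpins, had 172 and 162 CPM in Ptf1a+/- and 111 and 155 CPM in Ptf1a-/-. miR-30c-1-3p, its counterpart from the Nfyc intron, had 81.1 and 72.3 CPM in Ptf1a+/- and 57.3 and 55.4 CPM in Ptf1a-/-. miR-30b-3p stood at 233 and 236 CPM in Ptf1a+/- and 214 and 219.6 CPM in Ptf1a-/-, a smaller gap. miR-30d-3p, from the hairpin with the most abundant guide, was among the lowest arms and went the other way, with 129 and 113 CPM in Ptf1a+/- and 133 and 150.3 CPM in Ptf1a-/-. In Ptf1a-/- the levels of miR-30c-2-3p and miR-30d-3p overlapped, while in Ptf1a+/- the first was higher in both libraries.

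None of the 10 arms passed the test of Ptf1a-/- against Ptf1a+/- (edgeR quasi-likelihood test, Benjamini-Hochberg over 584 miRNAs, adjusted p under 0.05), against 9.76% of all tested miRNAs (6.16% higher and 3.60% lower in Ptf1a-/-). At an unadjusted p under 0.05 there were 3 of 10 (25.3% of all), namely miR-30e-3p, miR-30a-3p and miR-30a-5p; DESeq2 called 0 of 10 as well. The log2 fold change (± SE) was -0.43 ± 0.13 for miR-30e-3p, with an adjusted p of 0.101, and -0.43 ± 0.15 for miR-30a-3p, with 0.134. For miR-30a-5p, the partner of the latter, it was 0.32 ± 0.11 (adjusted p = 0.143). The other guides ranged from 0.04 ± 0.11 for miR-30c-5p (95% interval -0.23 to 0.32) to 0.27 ± 0.16 for miR-30b-5p, with miR-30d-5p at 0.18 ± 0.19 (interval -0.27 to 0.64). Of the remaining 3p arms, miR-30c-2-3p stood at -0.33 ± 0.18, miR-30b-3p at -0.11 ± 0.11 and miR-30d-3p at 0.23 ± 0.14, with adjusted p of 0.321, 0.581 and 0.384. miR-30c-1-3p stood at -0.44 ± 0.15 (adjusted p = 0.132).

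By count, the 5 guides had log2 fold changes above 0 with a median of 0.18, and 4 of the 5 member 3p arms were below 0 with a median of -0.33, beside a median of 0.00 over all 584 miRNAs (288 above 0). Without overlap between genotypes, Ptf1a-/- was the higher for 3 guides and 1 passenger arm (26.7% of all miRNAs) and the lower for 4 passenger arms (31.5% of all). With library size as the only scaling, 2 of the 5 guides stayed above 0 and the guide median was -0.02, beside -0.18 over all miRNAs, and on the deposited CPM (limma) 0 guides did (median -0.18, beside -0.33). The 3p medians were -0.53 and -0.69 under the same 2 scalings. Signs of the guides' differences therefore rest on the scaling, while the 3p median was below that of all miRNAs under each of the 3. With a weight per library (limma voom) miR-30e-3p and miR-30a-3p passed as lower in Ptf1a-/- (adjusted p = 0.0278 and 0.0340), in a fit that called 14.4% of all miRNAs (5.31% lower), and with the Ptf1a+/- pair summed into 1 library 0 of 10 arms passed. Without Ptf1a-/- replicate 1, 5 of 10 arms passed, beside 45.6% of all miRNAs, and without Ptf1a-/- replicate 2, 8 of 10 did, beside 47.3%, with the remaining Ptf1a-/- library assumed to vary like the close Ptf1a+/- pair.

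The sizes rested on which Ptf1a-/- library was kept. The 3p median was -0.11 without replicate 1 and -0.57 without replicate 2, and the guide median 0.035 and 0.17. In the same order, miR-30a-3p stood at -0.27 and -0.62, and miR-30c-2-3p at -0.11 and -0.58. Among the guides, miR-30b-5p stood at 0.035 and 0.47, miR-30d-5p at 0.40 and -0.071 and miR-30e-5p at -0.027 and 0.17. miR-30d-3p stood at 0.31 and 0.15.

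**Figure D3:**
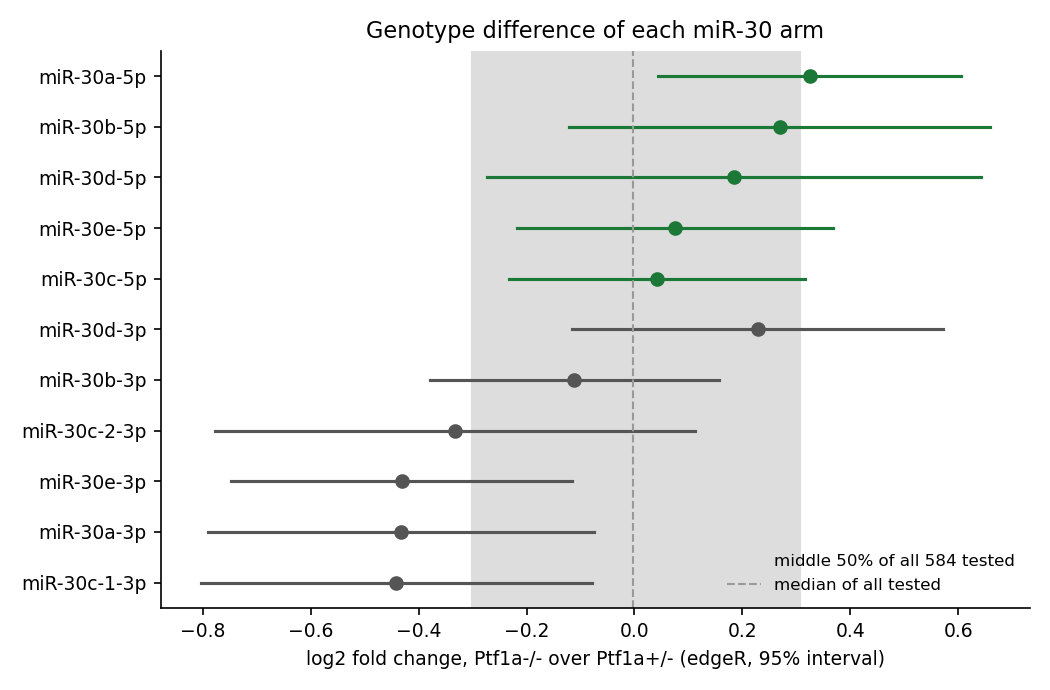
Log2 fold change of Ptf1a-/- over Ptf1a+/- with its 95% interval (edgeR) for the 5p arms (green) and 3p arms (grey), including miR-30c-1-3p; the band spans the middle 50% of all 584 tested miRNAs, -0.30 to 0.31, and the dashed line their median. The intervals of miR-30a-5p, miR-30a-3p, miR-30e-3p and miR-30c-1-3p leave out 0, before any adjustment for the number of miRNAs tested.

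A ratio of both arms of a hairpin within a library does not depend on how libraries are scaled. The share of the 3p arm differed widely within the family. In the Ptf1a+/- libraries it was 38.4 and 39.1% for miR-30b, 25.3 and 26.1% for miR-30e and 16.8 and 17.2% for miR-30a, but 0.475 and 0.425% for miR-30d, which had 210 and 234 counts of 5p for each count of 3p against 4.95 and 4.81 in miR-30a. The miR-30c hairpins share their 5p arm, so their shares (1.83 and 1.76% for miR-30c-2, 0.873 and 0.791% for miR-30c-1) are lower limits for each hairpin; both 3p arms together made up 2.68 and 2.52% of miR-30c counts.

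In the Ptf1a-/- libraries the 3p share was lower for 5 of the 6 hairpins. For miR-30a it was 9.89 and 11.7% (10.8 ± 1.26%, against 17.0 ± 0.288% in Ptf1a+/-), and for miR-30e 17.2 and 22.2% (19.7 ± 3.52%, against 25.7 ± 0.586%). miR-30b had 29.6 and 36.5%, miR-30c-2 1.16 and 1.63% and miR-30c-1 0.604 and 0.587%. In each of these 5 hairpins both Ptf1a-/- libraries lay below both Ptf1a+/- libraries, and for all but miR-30c-1 replicate 1 was the further one. miR-30d, with 0.520 and 0.423%, overlapped the Ptf1a+/- pair. Over the 10 arms, 3p counts made up 7.29 and 7.46% of family counts in Ptf1a+/- and 5.08 and 5.22% in Ptf1a-/-, a gap of 2.23 points beside SDs of 0.121 and 0.0991. This share mixes hairpins: miR-30d-5p, whose hairpin has the lowest 3p share, made up 50.4% of 5p counts in Ptf1a-/- replicate 1 and 58.9% in replicate 2. The 3p shares of miR-30a, miR-30b, miR-30c-2 and miR-30e were higher in replicate 2. The small Ptf1a-/- SD therefore does not hold for each hairpin. Exact binomial intervals on a miR-30a share reached at most 0.394 points to either side, and on a miR-30b share 2.16 points; on the latter the intervals of Ptf1a-/- replicate 2 (34.4 to 38.7%) and Ptf1a+/- replicate 1 (36.4 to 40.4%) overlap.

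**Figure D4:**
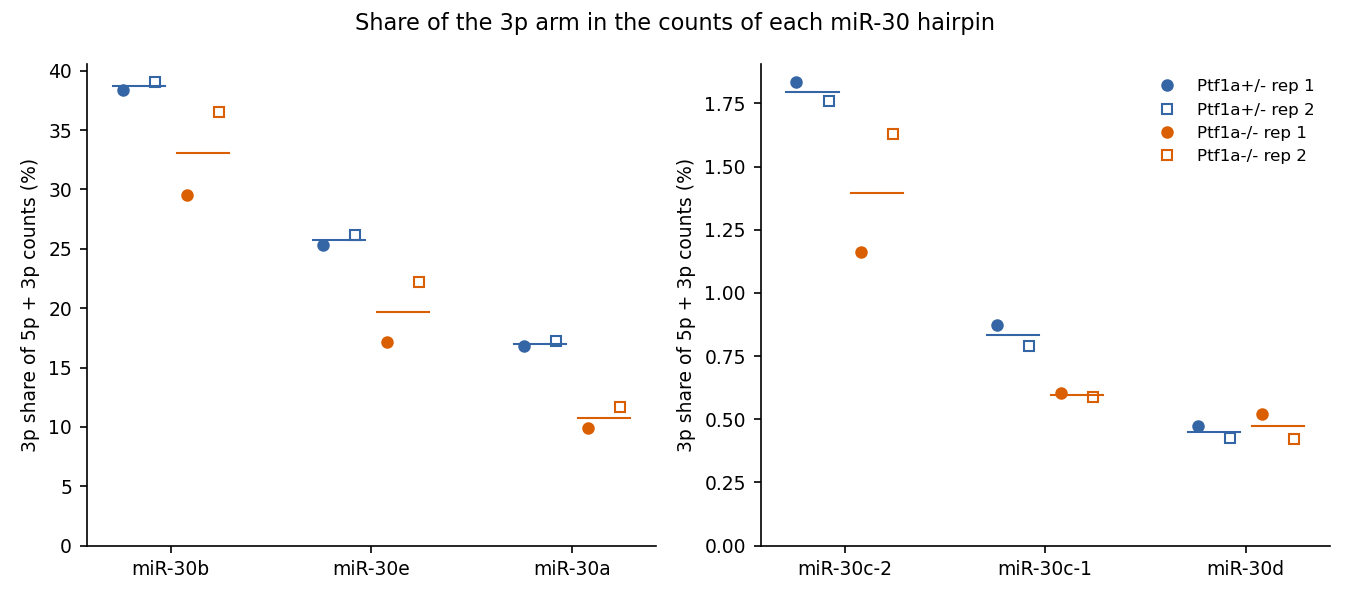
Share of the 3p arm in the 5p and 3p counts of each hairpin (%), with separate axes from 0 for the 3 hairpins with high shares (left) and the 3 with low shares (right); circles and squares are replicates 1 and 2, blue is Ptf1a+/-, orange Ptf1a-/-, and bars are means of 2 libraries. For miR-30a the share is 16.8 and 17.2% in Ptf1a+/- and 9.89 and 11.7% in Ptf1a-/-.

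The change of the log2 ratio of 5p to 3p counts was tested over all 179 hairpins with both arms past the count minimum (edgeR quasi-likelihood test of arm by genotype with library as a factor, Benjamini-Hochberg). None of the 6 miR-30 hairpins passed, against 0.559% of all hairpins, and limma on the log2 ratios called 0 of 6 too (1 of 6 at an unadjusted p under 0.05). At an unadjusted p under 0.05 there were 3 of 6 (15.1% of all), namely miR-30a, miR-30e and miR-30c-1. miR-30a had the 2nd smallest p and the 4th largest increase of all 179, a change of 0.77 ± 0.19 (SE; 95% interval 0.36 to 1.18; adjusted p = 0.0589). Its adjusted p in edgeR was 0.0197 with the replicate number as a block, a fit that called 3.35% of all hairpins. It was 0.469 in edgeR without the filter on arms and 0.249 in limma on the log2 ratios. The change was 0.77 in each of these fits. miR-30e stood at 0.51 ± 0.20 (adjusted p = 0.236), miR-30c-1 at 0.48 ± 0.20 (0.247), miR-30c-2 at 0.39 ± 0.21 (0.440), miR-30b at 0.37 ± 0.23 (0.483) and miR-30d at -0.06 ± 0.22 (0.909; interval -0.52 to 0.39).

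The miR-30 hairpins had a median change of 0.44, beside 0.03 over all 179 hairpins and 0.09 over the 114 hairpins with more 5p than 3p counts. Both Ptf1a-/- ratios lay above both Ptf1a+/- ratios in 5 of 6 miR-30 hairpins and in 26.8% of all hairpins, and below them in 0 of 6 and 21.8%. The miR-30c hairpins share a 5p arm and count as 2 of these 6. Leaving out Ptf1a-/- replicate 2, 5 of 6 hairpins passed, beside 29.4% of all hairpins, and leaving out replicate 1, 3 of 6 did, beside 31.2%, but in these fits the spread comes from the close Ptf1a+/- pair only; without either Ptf1a+/- library, 0 of 6 passed. The change for miR-30a lay between 0.63 and 0.90 over these 4 fits, and that for miR-30c-1 between 0.41 and 0.56, a narrower range. The other hairpins moved further than miR-30a. Without Ptf1a-/- replicate 1 the family median was 0.21, with miR-30e at 0.28, miR-30b at 0.14 and miR-30c-2 at 0.14. Without replicate 2 the median was 0.61, with miR-30e at 0.74, miR-30b at 0.59 and miR-30c-2 at 0.64. The seed relative miR-384, on the X chromosome, had more 3p than 5p counts, with 3p shares of 63.9 and 65.4% in Ptf1a+/- and 64.8 and 60.99% in Ptf1a-/-, which overlap (change of ratio 0.10 ± 0.26, adjusted p = 0.883). Its 5p arm stood at 80.6 and 81.9 CPM in Ptf1a+/- and 86.2 and 65.6 CPM in Ptf1a-/- (log2 fold change -0.09 ± 0.17, adjusted p = 0.791).

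**Figure D5:**
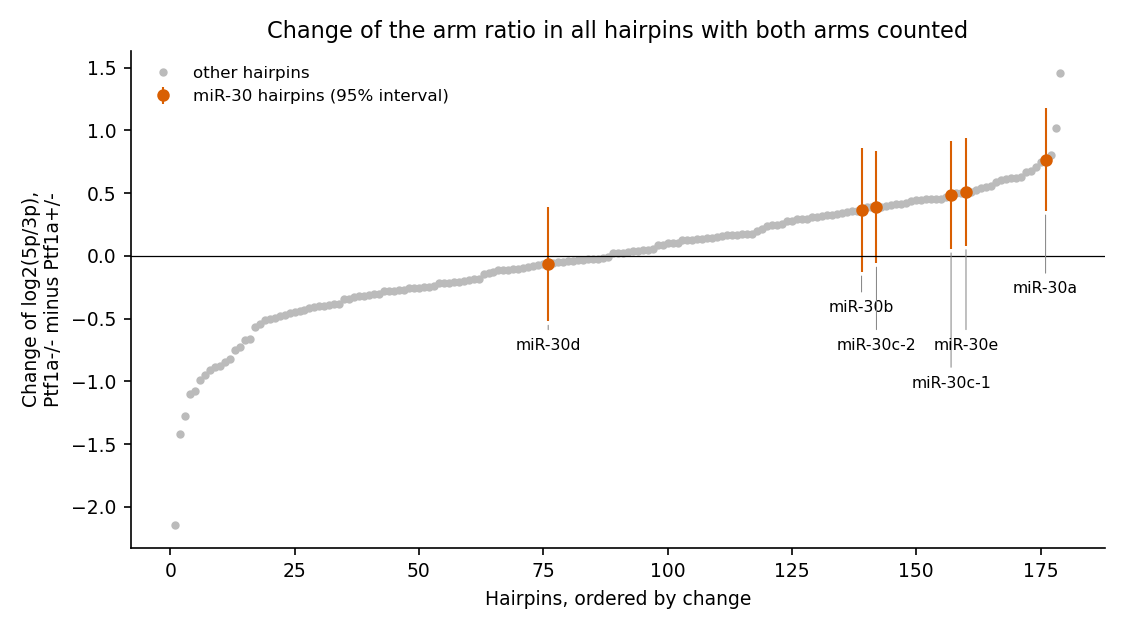
Change of log2(5p/3p) in Ptf1a-/- minus Ptf1a+/- for 179 hairpins ordered by size (grey points), with the 6 miR-30 hairpins in orange and their 95% intervals. miR-30a, at 0.77, is 4th from the top, and miR-30d, at -0.06, lies in the middle.

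The most frequent sequence of each arm, as deposited, started at the reference base in every library for all 10 arms, so the seeds shown above are those of the most frequent form. The 3′ ends varied by arm. For miR-30a-5p, miR-30d-5p and miR-30e-5p the most frequent form was 2 bases longer than the reference in all 4 libraries, ending in CT, which continues the hairpin for miR-30a and miR-30e. The forms are shown in the DNA letters of the deposited table, with the seed and the added bases in capitals.
miR-30a-5p, 4 libraries: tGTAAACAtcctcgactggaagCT
miR-30e-5p, 4 libraries: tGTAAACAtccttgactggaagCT
Such a 3′ extension was found in 28.1 to 30.0% of the 584 tested miRNAs per library. miR-30b-5p and miR-30c-5p had the reference form in all 4 libraries, so the extended and the reference ends divide the guides into groups that hold across genotype.

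The 3p arms shown above with the UUUCAGU seed had a most frequent form that departs from the hairpin at its last base, C22T (counted from 1 at the 5′ end). For miR-30b-3p, miR-30c-2-3p and miR-30d-3p the reference form was the most frequent in all 4 libraries. Whether these arms share that seed was not compared for miR-30b-3p and miR-30d-3p. Only 2.57 to 3.42% of tested miRNAs per library had a T in place of the last reference base. The forms are shown with the seed and the departing base in capitals.
miR-30a-3p, 4 libraries: cTTTCAGTcggatgtttgcagT
miR-30e-3p, 3 libraries: cTTTCAGTcggatgtttacagT
miR-30e-3p, Ptf1a-/- replicate 2: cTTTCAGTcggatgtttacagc
For miR-30a-3p the form with T was the most frequent in all 4 libraries. For miR-30e-3p it was so in both Ptf1a+/- libraries and in Ptf1a-/- replicate 1, while Ptf1a-/- replicate 2 had the reference form. Of 12 tested miRNAs with such a T in the first 3 of these libraries, 2 lacked it in Ptf1a-/- replicate 2. The table gives no counts per form, so how far apart the forms were in each library is not known, and a base added after a shortened end cannot be told apart from a replaced base.

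Over the 4 libraries, the tested miRNAs with the most similar course to the summed miR-30 guides, by Euclidean distance of centred log2 CPM among 573 others, were miR-140-3p (distance 0.036), let-7a-5p (0.052) and miR-99b-5p (0.058). All 3 were, like the summed guides, close in 3 libraries and highest in Ptf1a-/- replicate 2. miR-30d-5p made up 50.4 to 58.9% of the summed 5p counts, so the course of the sum is not that of each guide. miR-30a-5p and miR-30d-5p were highest in Ptf1a-/- replicate 2, but miR-30b-5p, miR-30c-5p and miR-30e-5p in Ptf1a-/- replicate 1. These courses are on TMM-scaled CPM, and Ptf1a-/- replicate 2 had the lowest TMM factor (0.829). As a share of listed counts the summed guides were lowest in that library (4.97%). The part of the scaling in the likeness was not tested. miR-140-3p had 1050.03, 1060.1, 1064 and 1279 CPM in Ptf1a+/- replicates 1 and 2 and Ptf1a-/- replicates 1 and 2.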

How the data were processed

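Small RNA of mouse retina was sequenced in 4 libraries. Per the labels' protocols, small RNA was cut from a gel, made into libraries with a New England Biolabs kit, and size-selected again as cDNA. The submitters' processing notes name bcl2fastq 2.20.0.422; the sources used here do not give the aligner, counter or build. The deposited raw table holds estimated counts (5.73 to 7.84% of values per library not whole), which were rounded. The deposited CPM table divides them by a larger library total set by the authors. The most frequent sequences are text, marked against miRBase22 per the file headers.

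Genotypes were compared with edgeR 4.0.16 (R 4.3.3, quasi-likelihood, TMM) over 584 miRNAs, and arm ratios over 179 hairpins paired by name. Both fits were tested on simulated counts with the same spread in every library. Such counts cannot show how the fits behave with a close and a distant pair, as in these data. Intervals of arm ratios use a t quantile at 16.7 degrees of freedom. limma 3.58.1 and DESeq2 1.42.0 were alternatives. Whole counts had been assumed in the design. The named miRNAs are all miR-30 arms, same-seed miRNAs and the 3 nearest courses over the libraries. Members and lists were chosen with earlier results of these data known. The exact binomial intervals cover counting error only, and reads carry no molecular identifiers, so copies made by PCR cannot be told apart. Intervals of log2 fold changes and arm ratios come from the edgeR fits and include the spread between libraries.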

Additional observations from a re-analysis of the deposited data

How the results depend on the processing

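The count of called arms was 0 of 10 in the reported fit and with library size only, DESeq2, no low-count filter, limma on the deposited CPM, the Ptf1a+/- pair summed and the replicate block. It was 2 (both lower) with library weights in limma voom, and 0 to 8 when 1 library was left out: 0 without either Ptf1a+/- library, 5 without Ptf1a-/- replicate 1 and 8 without Ptf1a-/- replicate 2, where the lone library is assumed to vary like the close Ptf1a+/- pair. Over all miRNAs the count of 57 (63.2% higher) became 16 with library size only (25% higher), 21 without the filter, 7 on the deposited CPM (0 higher), 1 with the pair summed, 12 with the replicate block, 84 with library weights, and 0 to 273 leaving out 1 library (264 of 579 without Ptf1a-/- replicate 1 and 273 of 577 without replicate 2). Called miR-30 hairpins numbered 0, but 1 (miR-30a, adjusted p = 0.0197) with the replicate block, and 0 to 5 leaving out 1 library. Over all hairpins 1 was called, against 0 without the arm filter, 0 with the pair summed, 6 with the replicate block and 0 to 55 leaving out 1 library. Deviations of replicate 1 from the genotype means correlated at 0.050 over 584 miRNAs. Because the Ptf1a+/- pair was close, this value can show little about a shared batch. The labels do not tie the numbers to a shared animal or day, so what libraries with the same number share is not known.

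The guide total's log2 ratio of 0.17 was -0.021 with library size only and -0.18 on the deposited CPM, and 0.04 to 0.29 leaving out 1 library. The miR-30d-5p share difference ran from -4.08 points without Ptf1a-/- replicate 2 to 4.40 points without replicate 1. Signs turned with library size only for miR-30c-5p (-0.13), miR-30d-5p (-0.021) and miR-30e-5p (-0.090), and on the deposited CPM for miR-30a-5p (-0.021), miR-30b-5p (-0.091), miR-30c-5p (-0.30), miR-30d-5p (-0.18), miR-30e-5p (-0.27) and miR-30d-3p (-0.12). Leaving out 1 library gave -0.071 to 0.40 for miR-30d-5p, -0.027 to 0.17 for miR-30e-5p, -0.32 to 0.088 for miR-384-5p and -0.22 to 0.084 for the miR-30d arm ratio. The cause of these differences was not tested. Of 30 arm ratio changes under the alternatives that keep all libraries, 29 kept direction and side of the threshold and 1 gained a call.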
